A study of Mus musculus with 36 samples.

Results

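Nitric oxide, arginine and itaconate metabolism was examined through 9 genes of the 54532 in the count table: Nos2, Gch1, Ass1, Asl, Arg1, Arg2, Odc1, Acod1 and Sod2. They were taken by gene symbol, and each had counts. RNA-seq had been performed on C57BL/6 bone marrow–derived macrophages (BMDMs) from adult female mice, grown with MCSF for 7 days and then exposed for 6 h to DMSO vehicle, 100 µM CCM, 100 nM LPS with DMSO, or 100 nM LPS with 100 µM CCM. CCM (Core Circadian Modulator) is a small molecule made to bind the PASB domain of the clock factor BMAL1, and LPS (lipopolysaccharide) is a bacterial cell wall component that activates macrophages. The WT libraries came from Bmal1 flox/flox littermates without Cre (n = 3 per treatment) and the KO libraries from LysM-Cre;Bmal1 flox/flox mice (n = 6 per treatment), so that both genotypes carry the floxed alleles and Cre acts in cells that express lysozyme. The comparisons below address how these genes responded to LPS, to CCM, and to CCM under LPS, in each genotype. Each vehicle and LPS group serves in several of these comparisons. The labels do not say that replicates came from separate mice. The paper describes its macrophage replicates as biological and reports the use of female mice in every condition. The p-values measure the spread between these libraries, and how much of that spread is technical was not tested.

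Activated mouse macrophages switch on an arginine route in which the inducible nitric oxide synthase (Nos2) splits arginine into nitric oxide and citrulline, using tetrahydrobiopterin, whose synthesis is started by GTP cyclohydrolase (Gch1). Argininosuccinate synthase (Ass1) and argininosuccinate lyase (Asl) turn citrulline back into arginine, whereas the cytosolic and mitochondrial arginases (Arg1 and Arg2) divert arginine to ornithine and urea, and ornithine decarboxylase (Odc1) takes ornithine into the polyamines. Aconitate decarboxylase (Acod1, also known as Irg1) draws cis-aconitate out of the citrate cycle to make itaconate, and the mitochondrial superoxide dismutase (Sod2) removes superoxide, which otherwise reacts with nitric oxide.

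Library totals ran from 13469262 to 28288923 counts (median 19951421). The targeted gene, Arntl (Bmal1; GRCm38 chr7:113207465-113314126), was read at 7.52 to 12.9 CPM (counts scaled to library size with TMM factors) in WT and at 2.02 to 10.8 CPM in KO libraries, so the groups overlapped, and no genotype test called it (log2 fold change -0.34, adjusted p = 1 in vehicle). A count over the whole gene also takes reads from exons outside the deleted part. For the effects of CCM in KO macrophages, the paper names incomplete penetrance of the deletion or limited off-target actions as possibilities. How far the deletion went was not tested here, and KO below means the libraries labelled KO. KO replicate 6 stood apart in every treatment, KO replicate 2 did so by its Lyz2 level, and KO replicates 2 and 5 did so under LPS plus CCM. In the libraries labelled KO replicate 2, Arntl was at 7.76 to 10.8 CPM. Other KO libraries also reached the WT range of Arntl, such as vehicle replicate 4 (7.98 CPM) and CCM replicate 5 (8.29 CPM). Lyz2, the gene whose locus carries LysM-Cre, was at 11052 to 14686 CPM in the replicate 2 libraries. It was at 5862 to 10177 CPM in the other KO libraries and 10457 to 15185 CPM in WT, so that replicate 2 lay within the WT range for both genes. The sum of the other 5 macrophage markers did not separate it, at 4188 to 5251 CPM against 2778 to 5602 CPM in the other KO libraries and 4015 to 5183 CPM in WT. In KO replicate 6, Arntl was at 2.02 to 4.80 CPM and the sum of 7 neutrophil markers was at 1030 to 1106 CPM, against 387 to 999 CPM in the other KO libraries, while the 5 macrophage markers other than Lyz2 summed to 2778 to 3539 CPM, against 3789 to 5602 CPM. KO replicate 5 under LPS plus CCM differed from replicates 1, 3 and 4 of its group with a chi-square per degree of freedom of 167 to 173 over genes, where those 3 differed among themselves by 11.1 to 18.6. Replicate 2 of that group differed from the same 3 by 56.0 to 61.7, and replicate 6 by 307 to 339. No fit left out replicates 2, 5 and 6 together. Every macrophage marker had counts in every library, but so did all 4 fibroblast markers, which summed to 301 to 1650 CPM. In WT the 7 neutrophil markers summed to 380 to 624 CPM. The share of other cells in the libraries was not tested. The part of these differences in the results was not tested. Several KO values that rest on these libraries are given with and without them. Others, among them the log2 fold changes of KO against WT, are given only with them.

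The 9 genes have the coordinates of GENCODE M21 on GRCm38, with Nos2 at chr11:78920787-78960254, Gch1 at chr14:47153895-47189413, Ass1 at chr2:31470207-31520672, Asl at chr5:130011258-130029247, Arg1 at chr10:24915221-24927484, Arg2 at chr12:79130777-79156301, Odc1 at chr12:17544794-17551505, Acod1 at chr14:103046977-103056573 and Sod2 at chr17:13006846-13040063. Counts of 4 members were less certain than the rest, since the strand setting and the treatment of multiply mapped pairs were not given in the sources used here. Of the exonic bases of Arg2, 28.1% overlap genes on the opposite strand, mostly Vti1b, which had 1146 to 3130 counts per library against 35 to 291 for Arg2. Ass1 shares 1025 of its 31-base words with the processed pseudogene Gm5424, which had 97 to 2238 counts against 208 to 9627 for Ass1. Odc1 shares at least 200 such words with 10 other genes, of which the highest, AW146154, reached 136 counts against 986 to 2949 for Odc1. Sod2 shares 2015 words with Rps6ka2, which had 182 to 1002 counts against 1115 to 72421 for Sod2.

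RefSeq windows around the transcription start (250 bases before to 50 after, GRCm38.p6) were found for 5 of the 9 members, Nos2 not among them. The sequences below are shown because Gch1, Ass1, Acod1 and Sod2 rose strongly with LPS, and Gch1, Acod1 and Odc1 changed with CCM under LPS in WT. Capitals mark matches to the motifs searched on both strands: the E-box CACGTG bound by BMAL1 and CLOCK, the NF-kB consensus, the AP-1 motif TGANTCA, the CRE core TGACG, the interferon-related GAS motif TTCNNNGAA, and the ISRE consensus. For Gch1 and Acod1 the stretch lies before the annotated gene (chr14:47189414-47189663, minus strand, and chr14:103046762-103046976, plus strand). For Ass1 (chr2:31470222-31470251), Odc1 (chr12:17544782-17544811) and Sod2 (chr17:13007746-13007775), all on the plus strand, 30 bases around a match are shown. The Ass1 and Sod2 stretches lie inside the annotated gene, and that of Odc1 spans its annotated start. Positions below count from the RefSeq start.
Gch1: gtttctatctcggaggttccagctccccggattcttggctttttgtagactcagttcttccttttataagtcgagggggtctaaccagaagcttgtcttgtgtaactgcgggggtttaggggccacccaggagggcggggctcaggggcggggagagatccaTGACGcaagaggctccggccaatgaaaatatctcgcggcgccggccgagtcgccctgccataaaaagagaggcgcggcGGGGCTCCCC
Acod1: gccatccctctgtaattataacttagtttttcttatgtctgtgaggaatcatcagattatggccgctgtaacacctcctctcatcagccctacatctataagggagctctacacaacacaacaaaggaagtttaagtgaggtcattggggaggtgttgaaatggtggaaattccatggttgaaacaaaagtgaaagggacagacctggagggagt
Ass1: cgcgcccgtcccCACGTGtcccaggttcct
Odc1: gccccgccccacTGACGcgcccggcccgcg
Sod2: cggggcggacGGGGTTCCCCgaggcggggc
The E-box was found in the Ass1 window alone of the 5, at position -36 from the RefSeq start, and in 7.15% of all 32851 windows. The NF-kB consensus was found at -10 in Gch1 and at -83 in Sod2 (8.46% of all windows hold it), the CRE core at -88 in Gch1 and at -79 in Odc1 (20.8%), and the GAS motif at -185 in Sod2 (8.3%). No match overlapped another. AP-1 (7.81%) and the ISRE (3.44%) were found in none of the 5, and the Acod1 window held none of the motifs, which says only that these letters are not in it.

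In WT BMDMs, LPS raised 8 of the 9 genes and none was called lower, where 30.6% of the 14501 genes tested were called higher and 32.4% lower (edgeR quasi-likelihood test, adjusted p of at most 0.05). The median log2 fold change of the members was 3.93, against -0.05 over all genes tested. The 5 large rises were those of the nitric oxide synthase, its cofactor enzyme, the citrulline-recycling Ass1, the itaconate enzyme and Sod2. Both arginases and Odc1 rose by 0.35 to 1.12 on the log2 scale, and Asl did not pass the test. The scale matters for the small changes, because TMM factors were 1.11 to 1.19 in WT vehicle and 0.88 to 0.89 in WT LPS libraries: scaling by total counts alone moved the median log2 fold change of all genes to -0.47 and the calls from 4441 higher and 4698 lower to 2551 higher and 8060 lower. Values below are on the TMM scale. In bulk libraries, fewer cells of a type and less RNA per cell cannot be told apart.

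**Figure D1:**
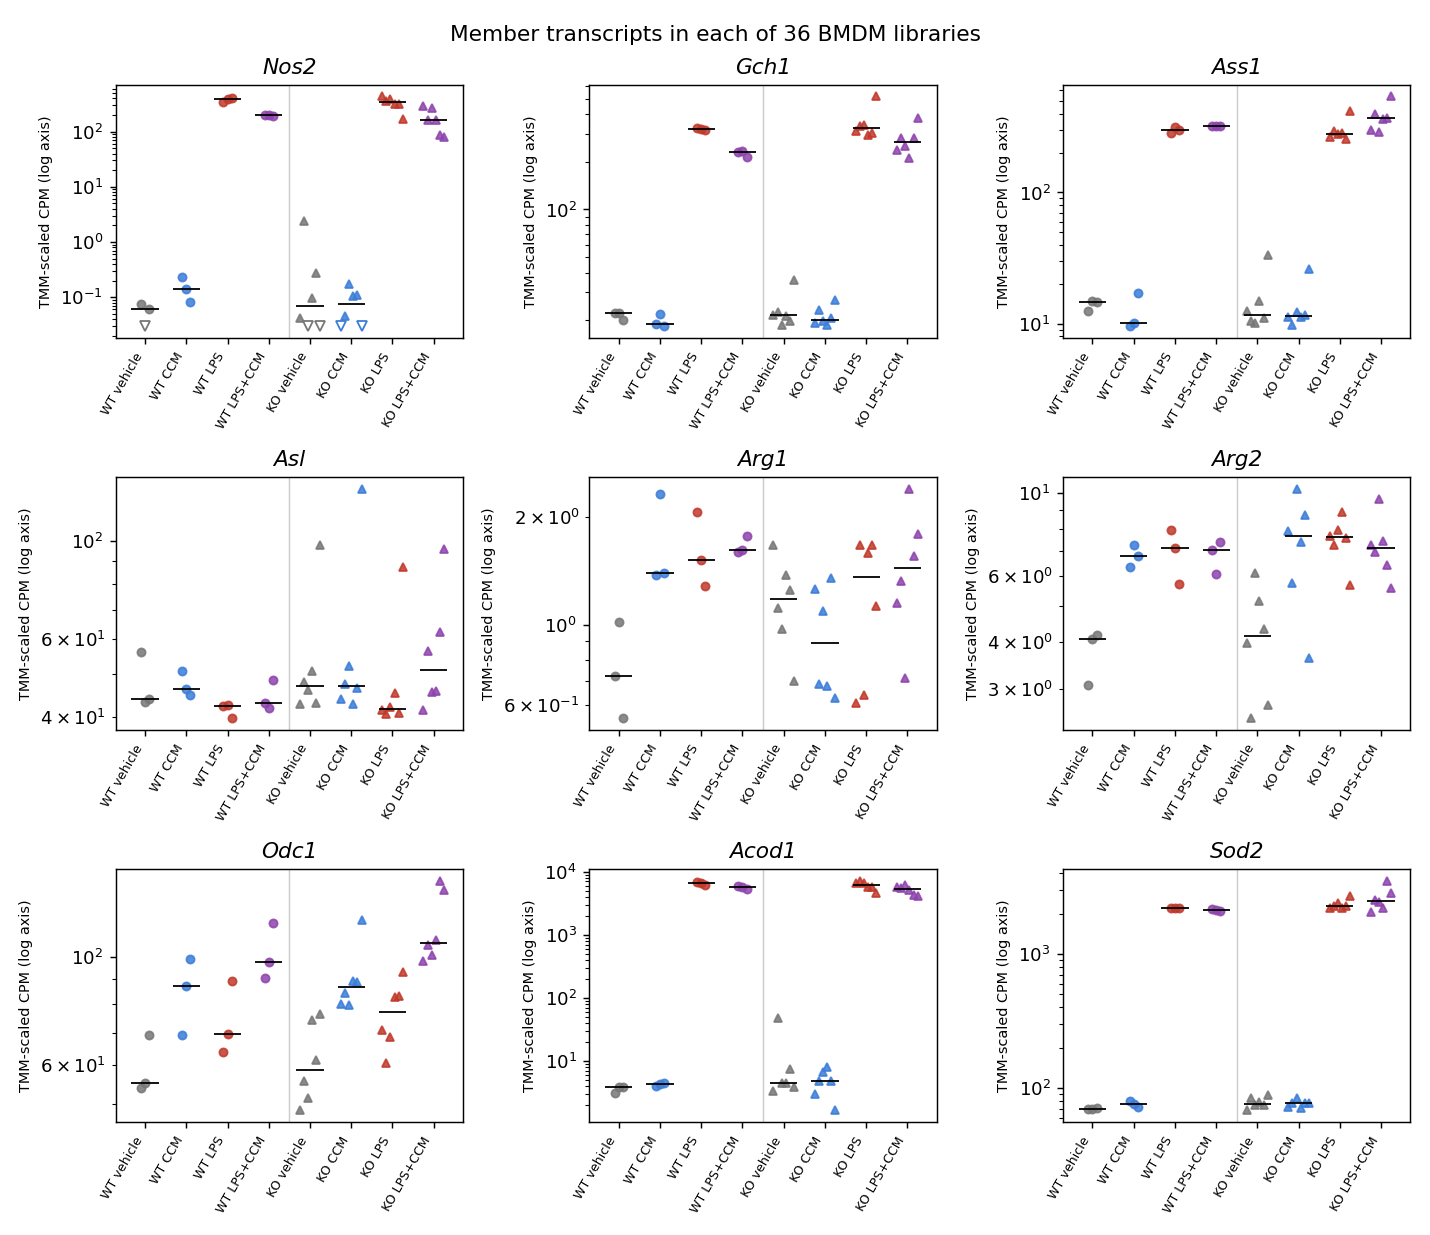
TMM-scaled CPM of the 9 members on log axes, with 1 symbol per library (circles for the 3 WT and triangles for the 6 KO libraries of each treatment), a bar at the median, and open symbols at the lower edge for Nos2 libraries with 0 counts. Nos2, Gch1, Ass1, Acod1 and Sod2 sit far above vehicle in every LPS library, while Asl, Arg1, Arg2 and Odc1 stay within a narrow range.

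Nos2 was nearly silent without LPS, with 2, 0 and 2 counts in the WT vehicle libraries, and reached 5909, 8899 and 9980 counts under LPS, or 349, 387 and 402 CPM. The ratio of the summed levels was 7810, with a 95% interval of 3050 to 28700 from the counting error of the 4 vehicle counts alone. The edgeR log2 fold change was 12.80 ± 0.18 (SE; adjusted p = 1.7e-11). This SE is smaller than the counting error of those 4 vehicle counts. The counting interval is therefore the better guide to the size of the rise. Acod1 went from 3.15, 3.95 and 3.97 CPM to 6898, 6629 and 6190 CPM, a log2 fold change of 10.82 ± 0.12 (adjusted p = 8.31e-12). Neither gene had a vehicle library anywhere near its LPS libraries.

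Gch1 lay at 22.1, 22.1 and 20.2 CPM in vehicle and at 326, 319 and 317 CPM under LPS. Its log2 fold change was 3.93 ± 0.06 (adjusted p = 3.08e-11), a 15.2-fold rise with almost no spread among the LPS libraries. Ass1 rose from 12.4, 14.9 and 14.5 CPM to 283, 315 and 299 CPM (4.45 ± 0.09, adjusted p = 8.18e-11). The pseudogene Gm5424, whose reads may in part be those of Ass1, rose alongside it by 3.64 ± 0.12. Asl, the next enzyme of the same cycle, was at 56.2, 43.1 and 43.8 CPM in vehicle and 42.2, 42.6 and 39.7 CPM under LPS (-0.17 ± 0.09, adjusted p = 0.14). Thus the 2 enzymes that remake arginine from citrulline differed in their response, with the 95% intervals of their log2 fold changes at 4.25 to 4.66 for Ass1 and -0.38 to 0.04 for Asl.

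Sod2 rose from 70.1, 69.2 and 70.8 CPM to 2220, 2219 and 2195 CPM, a 32.2-fold change (5.01 ± 0.06, adjusted p = 9.78e-12). Arg1 was scarcely read at all, with 19, 23 and 18 counts in vehicle and 35, 35 and 32 under LPS. Its log2 fold change of 1.12 ± 0.34 passed the test (adjusted p = 0.0148) but not without LPS replicate 1 (0.92, adjusted p = 0.061) or with total-count scaling (0.71, adjusted p = 0.0844). Arg2 went from 3.07, 4.08 and 4.18 CPM to 7.97, 7.12 and 5.72 CPM (0.90 ± 0.19, adjusted p = 0.00247). Both arginases thus rose from low levels, by 2.18-fold and 1.86-fold, with no overlap between groups.

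Odc1 overlapped between the groups, at 53.8, 55.2 and 69.3 CPM in vehicle and 64.0, 69.5 and 89.2 CPM under LPS. It was the weakest of the 8 calls (0.35 ± 0.14, adjusted p = 0.0454), was lost without vehicle replicate 1 or 2 or without LPS replicate 2 or 3 (log2 fold changes of 0.20 to 0.40), and turned to -0.06 (adjusted p = 0.69) with total-count scaling. With that scaling Asl was called lower (-0.58, adjusted p = 1.95e-04).

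Per kilobase of the deposited gene length, the WT vehicle order was led by Odc1 (17.5 ± 2.5 CPM per kb, mean ± s.d., n = 3) and Asl (9.88 ± 1.52), followed by Sod2 (7.00 ± 0.08), Ass1 (5.77 ± 0.55), Gch1 (3.44 ± 0.18), Arg2 (2.65 ± 0.43), Acod1 (1.41 ± 0.18), Arg1 (0.343 ± 0.107) and Nos2 (0.0103 ± 0.0091). Under LPS the order of levels became Acod1 (2506 ± 136 CPM per kb), Sod2 (221 ± 1.4), Ass1 (124 ± 6.6), Nos2 (85.9 ± 6.1), Gch1 (51.3 ± 0.8), Odc1 (21.8 ± 3.9), Asl (8.59 ± 0.33), Arg2 (4.86 ± 0.80) and Arg1 (0.729 ± 0.180). The Acod1 transcript thus moved from the seventh to the first place, and Nos2 from the last to the fourth. In both orders every pair of neighbours was further apart than the larger of their s.d., which is the spread between libraries. It does not cover an error in the deposited gene length, on which the order also rests.

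**Figure D2:**
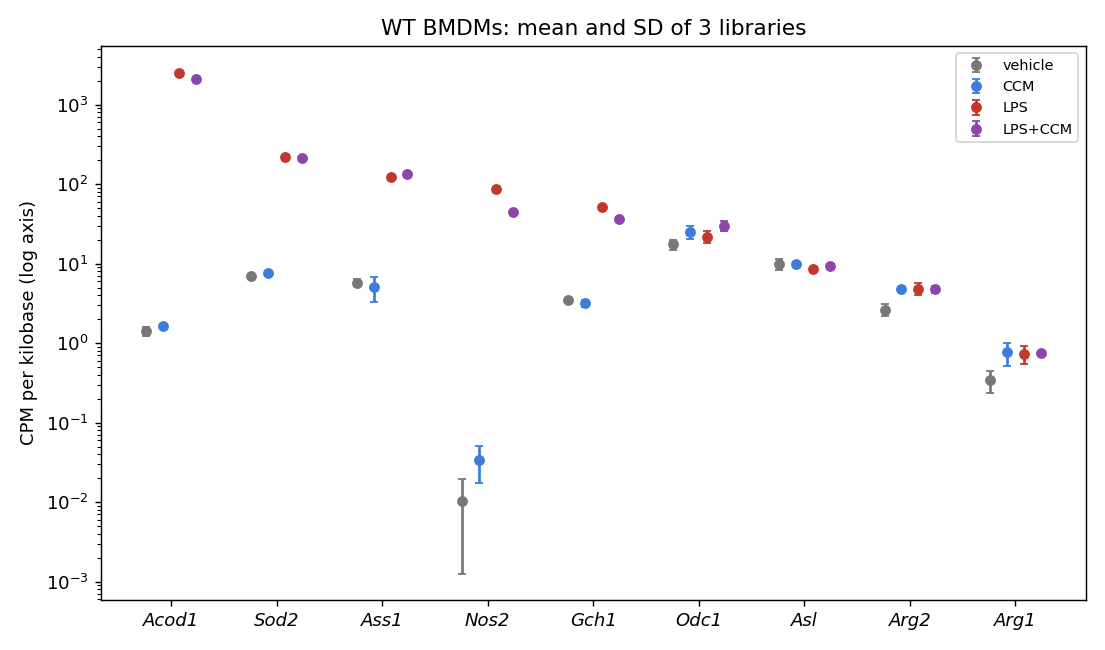
Mean TMM-scaled CPM per kilobase of gene length (log axis) with s.d. bars over 3 WT libraries per treatment, genes ordered by their level under LPS. Acod1 stands highest with LPS at 2506 CPM per kb, and Nos2 with LPS plus CCM lies below Nos2 with LPS.

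In KO BMDMs, LPS raised 6 of the 9 genes, where 22.4% of the 13648 genes tested were called higher and 24.7% lower. Total-count scaling moved the calls over all genes from 3060 higher and 3373 lower to 1825 higher and 5708 lower, and the median from -0.05 to -0.44. They were Nos2, Gch1, Ass1, Arg2, Acod1 and Sod2. Nos2 was at 0, 0.0690 and 2.36 CPM (lowest, median and highest) in vehicle and at 166, 344 and 433 CPM under LPS, with a log2 fold change of 9.43 ± 0.90 (adjusted p = 1.43e-06). The highest vehicle value, 53 counts, stood in KO replicate 2, and without that replicate the log2 fold change was 11.74. Acod1 was at 3.35, 4.57 and 47.6 CPM in vehicle and at 4654, 6255 and 7180 CPM under LPS (9.01 ± 0.85, adjusted p = 1.29e-06), and the 47.6 CPM came from the same library. Without replicate 2 its log2 fold change was 10.27, close to the WT value.

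Gch1 rose in KO from 18.6, 21.5 and 35.7 CPM (lowest, median and highest) to 296, 324 and 515 CPM (3.92 ± 0.23, adjusted p = 1.4e-08), and Ass1 from 10.1, 11.7 and 33.2 CPM to 256, 281 and 421 CPM (4.29 ± 0.34, adjusted p = 2.58e-07). For both genes the highest vehicle and the highest LPS library was KO replicate 6, and without replicates 2 and 6 together the log2 fold changes were 3.97 and 4.51. Sod2 rose by 4.92 ± 0.13 (adjusted p = 3.36e-11), from 67.9, 76.4 and 88.3 CPM to 2193, 2296 and 2714 CPM. Arg2 overlapped by a single vehicle library, with 2.50, 4.15 and 6.12 CPM in vehicle and 5.67, 7.63 and 8.91 CPM under LPS (0.86 ± 0.21, adjusted p = 0.0037), and lost its call with total-count scaling (0.47, adjusted p = 0.121). Arg1 did not pass the test in KO (1.18 CPM median in vehicle, 1.36 CPM under LPS, log2 fold change 0.04 ± 0.30, adjusted p = 0.937).

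Same-numbered KO vehicle and LPS libraries deviated together (correlations of their deviations from the group means 0.30 to 0.83), and a fit blocked on replicate number called 8 of 9 members, where 71.6% of the genes were called. The added calls were Odc1, higher by 0.33 (adjusted p = 2.28e-04 with the block and 0.107 without it), and Asl, lower by 0.13 (adjusted p = 0.0286 with the block and 0.747 without it). Without replicate 6, the unblocked edgeR test put Asl at -0.14 (adjusted p = 0.0542). Odc1 was higher under LPS in 6 of 6 same-numbered pairs, and was also called without replicate 6 (0.33, adjusted p = 0.0199), where 69.4% of the genes were. With total-count scaling it was at -0.05.

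**Figure D3:**
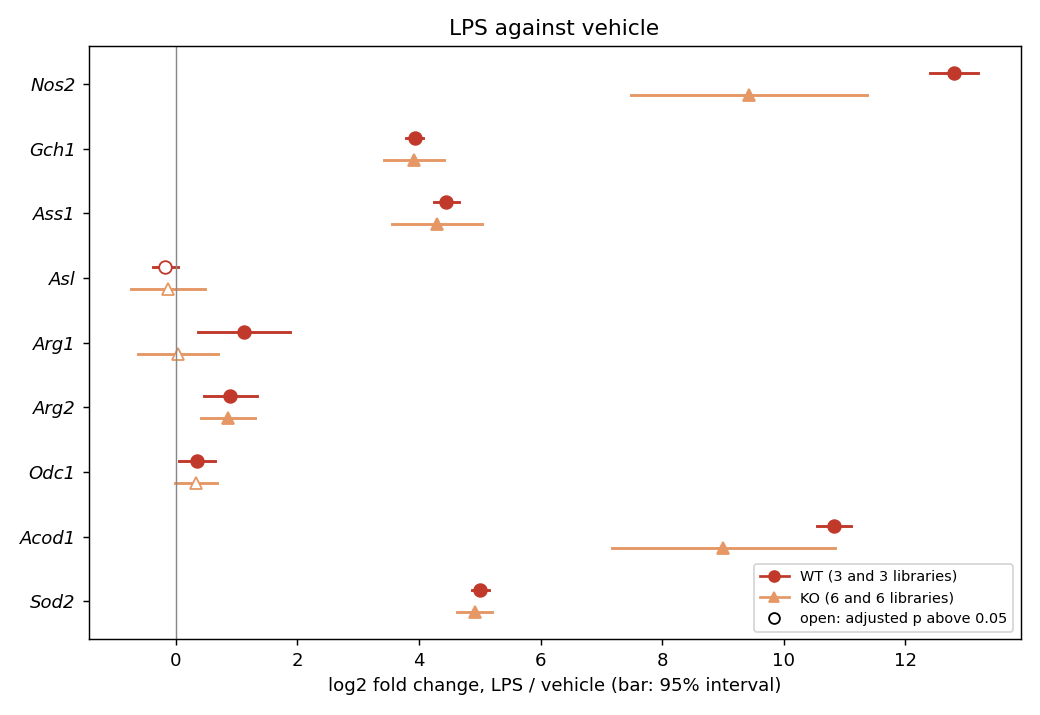
Log2 fold change of LPS against vehicle for the 9 members with 95% intervals, circles for WT and triangles for KO, open where the adjusted p is above 0.05. Drawn intervals of both genotypes overlap for every gene apart from Nos2, whose KO value rests on vehicle replicate 2. The WT bar of Nos2 is narrower than the counting error of its 4 vehicle counts, so its gap from KO is not a shown difference.

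Listed genes around the members went both ways under LPS in WT, as did all genes tested, of which 30.6% were called higher and 32.4% lower. Whether a list differed from these shares was not tested. Of 12 listed genes of nitric oxide cofactors and handling, 9 could be tested in WT, and 5 were called, each lower, with a median of -0.49. Ddah2, an enzyme that breaks down methylated arginines, fell by 1.04, Spr, the last enzyme of tetrahydrobiopterin synthesis, by 0.73, and Qdpr, which recycles that cofactor, by 0.59 on the log2 scale. So Gch1, the first enzyme of the cofactor's synthesis, rose 15.2-fold while Spr, the last, fell.

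Of the 15 tested of 18 genes of arginine supply, ornithine and polyamines, 5 rose and 6 fell under LPS in WT (median -0.14). Slc7a2, the arginine transporter of activated macrophages, rose by 5.85 ± 0.11, from 38.0, 39.6 and 45.9 CPM (lowest, median and highest) to 2114, 2405 and 2453 CPM. Its rise on the log2 scale was larger than those of Gch1, Ass1 and Sod2. Slc7a1, another arginine transporter, rose by 1.37, Dhps, which uses spermidine to modify a translation factor, by 0.85, and Smox, spermine oxidase, by 0.76.

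Of the 17 tested of 18 genes of the citrate cycle around itaconate, 4 rose and 6 fell (median -0.04). Acod1 competes with isocitrate formation for cis-aconitate, and both NADP-linked isocitrate dehydrogenases fell, Idh1 by 1.56 and Idh2 by 1.22. Suclg2, a subunit of succinyl-CoA ligase, fell by 1.63, and Clybl, which handles the itaconate breakdown product citramalyl-CoA, fell by 0.86. Of 14 genes of superoxide production and removal, 6 rose and 4 fell (median -0.01). Cybb, the catalytic subunit of the phagocyte NADPH oxidase, rose by 2.47, its partner Rac2 by 1.54 and the extracellular dismutase Sod3 by 1.55, and the peroxidase Gpx1 fell by 1.47. In KO the counts of higher and lower calls were 0 and 3, 4 and 2, 2 and 5, and 5 and 1 for the 4 lists in the same order. Of all genes tested in KO, 22.4% were called higher and 24.7% lower.

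CCM without LPS gave no call among the 8 members that could be tested in WT, where 0.057% of 14024 genes were called, nor among the same 8 in KO, where 0% of 13799 genes were. Without adjustment, 1404 genes in WT and 333 in KO had a p under 0.05, and DESeq2 called 247 and 24 genes. Nos2 was too low to test, with 5, 3 and 2 counts in the WT CCM libraries and 0 to 5 counts in those of KO. The members nearest to a call were on the arginase side: Arg2, Odc1 and, in WT, Arg1. In WT, Arg2 was at 6.34, 7.27 and 6.81 CPM with CCM, above the vehicle libraries at 3.07 to 4.18 CPM (0.86 ± 0.17, adjusted p = 0.121) and near its 5.72 to 7.97 CPM under LPS. Odc1 was at 69.1, 87.4 and 99.2 CPM, against 53.8 to 69.3 CPM (0.53 ± 0.14, adjusted p = 0.239). These 2 genes were called with DESeq2 (adjusted p = 0.00736 for Arg2 and 0.00258 for Odc1). Arg1 was at 1.38, 2.33 and 1.39 CPM, against 0.549 to 1.02 CPM (1.18 ± 0.35, adjusted p = 0.288).

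In KO, CCM libraries held Arg2 at 3.62, 7.66 and 10.3 CPM (lowest, median and highest), against 2.50, 4.15 and 6.12 CPM in vehicle (0.81 ± 0.26, adjusted p = 1), higher in 6 of 6 same-numbered pairs. Odc1 was at 79.7, 86.8 and 119 CPM against 48.5, 58.6 and 76.4 CPM, so that the groups did not overlap (0.56 ± 0.16, adjusted p = 1). Same-numbered vehicle and CCM libraries of KO deviated together (correlations 0.34 to 0.84), and a fit blocked on replicate number called both genes, Arg2 at 0.82 (adjusted p = 0.00399) and Odc1 at 0.56 (adjusted p = 6.27e-04), where 3.11% of the genes were called. Without KO replicate 6, Odc1 was called also without the block (0.52, adjusted p = 0.0298), and the share of genes called was 1.01% (141 genes) in place of 0. Arg1, which stood higher with CCM in each WT pair, was lower in 4 of 6 KO pairs (-0.32 ± 0.26, adjusted p = 1). Acod1 had a log2 fold change of -1.28 in KO that rested on vehicle replicate 2 and was 0.02 without it.

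**Figure D4:**
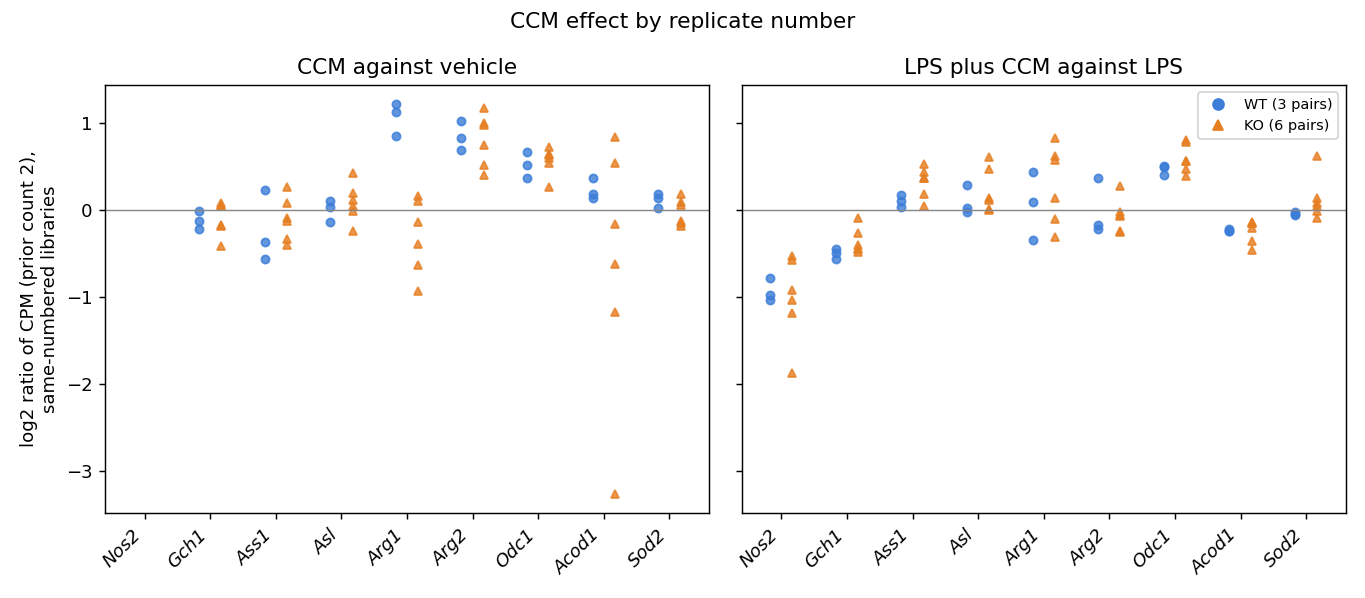
Log2 ratio of CPM (prior count of 2) between same-numbered libraries, for CCM against vehicle (left, Nos2 left out for its few counts) and LPS plus CCM against LPS (right), circles for 3 WT pairs and triangles for 6 KO pairs. Under LPS, Nos2, Gch1 and Acod1 lie below 0 and Odc1 above 0 in every pair of both genotypes.

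Under LPS, CCM lowered Nos2, Gch1 and Acod1 and raised Odc1 in WT BMDMs, and the other 5 members did not pass the test, where 4.15% of 13579 genes were called higher and 7.78% lower. Nos2 was at 349, 387 and 402 CPM with LPS and at 202, 196 and 195 CPM with LPS plus CCM. This was a 1.91-fold lower level (log2 fold change -0.93 ± 0.06, adjusted p = 1.42e-05). Gch1 fell from 326, 319 and 317 CPM to 232, 233 and 214 CPM (-0.50 ± 0.05, adjusted p = 1.34e-04). Both fell in 3 of 3 same-numbered pairs without overlap, so the synthase and the enzyme that starts its cofactor moved the same way. The call of Nos2 and of Gch1 was kept in 12 of the 13 alternatives run, and was lost in a fit over all 36 libraries together, where 17 genes were called in all.

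Acod1 fell from 6898, 6629 and 6190 CPM to 5827, 5673 and 5240 CPM, a 1.17-fold lower level (-0.23 ± 0.06, adjusted p = 0.0258). Odc1 rose from 64.0, 69.5 and 89.2 CPM to 90.4, 97.7 and 118 CPM (0.46 ± 0.12, adjusted p = 0.0359). Either call was lost without LPS replicate 1 or 2, or without LPS plus CCM replicate 2 or 3, with adjusted p of 0.0756 to 0.0914 for Acod1 and 0.0777 to 0.135 for Odc1. Total-count scaling also ended the call of Acod1 (-0.15, adjusted p = 0.0921), and moved the calls over all genes from 564 higher and 1057 lower to 1539 higher and 733 lower.

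Ass1 was at 283, 315 and 299 CPM with LPS and 319, 322 and 320 CPM with LPS plus CCM (0.10 ± 0.05, adjusted p = 0.185). Its log2 fold change had a 95% interval of 0.002 to 0.21. In this comparison too, same-numbered libraries deviated together (correlations 0.15 to 0.36), and a fit blocked on replicate number called Ass1 as well (0.11, adjusted p = 0.0419), where 23.7% of the genes were called. Its pseudogene Gm5424 was called without the block (0.51 ± 0.09, adjusted p = 0.00504). Asl was at 0.11 ± 0.07, Arg1 at 0.06 ± 0.26, Arg2 at -0.0052 ± 0.16 and Sod2 at -0.04 ± 0.04. For Sod2, at 2180, 2145 and 2105 CPM with CCM, the 95% interval was -0.12 to 0.05, so a change of the size seen for Nos2 or Gch1 lay outside it. Arntl itself was read higher with CCM under LPS in WT (0.43 ± 0.12, adjusted p = 0.0441) and was at -0.06 ± 0.30 in KO.

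**Figure D5:**
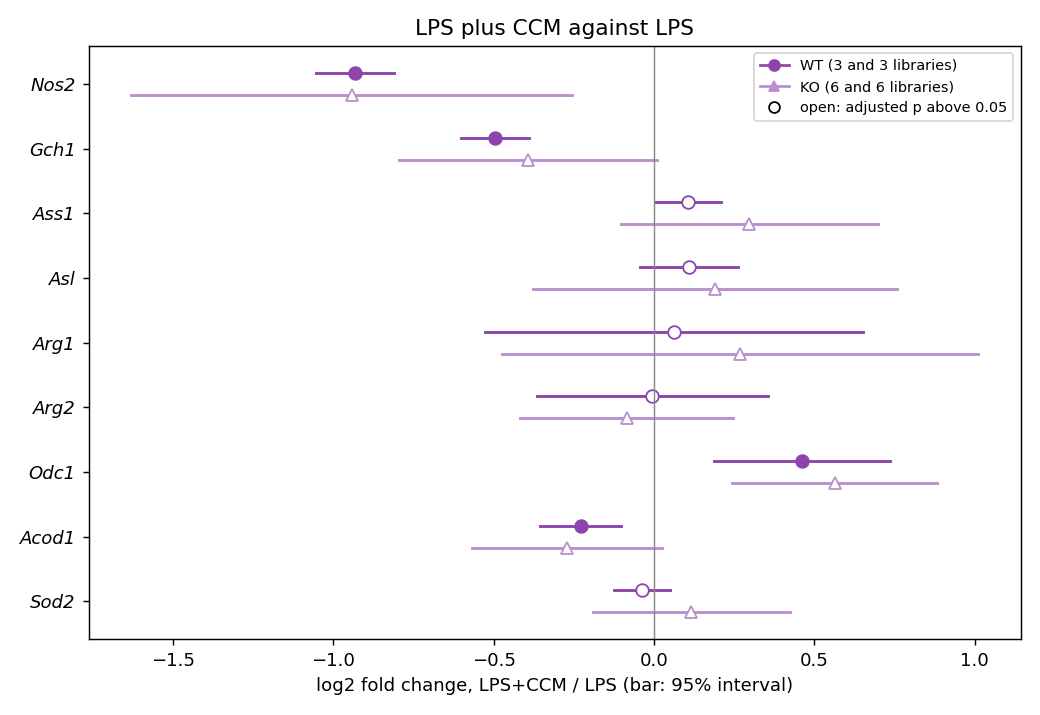
Log2 fold change of LPS plus CCM against LPS for the 9 members with 95% intervals, circles for WT and triangles for KO, open where the adjusted p is above 0.05. The estimates for Nos2 are -0.93 in WT and -0.94 in KO, with a much wider interval in KO.

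Listed genes around these members were also called for CCM under LPS in WT, where 4.15% of all genes tested were called higher and 7.78% lower. Of the arginine and polyamine list, 2 rose and 3 fell of 15 tested (median -0.05, against 0.01 over all genes). Those that fell most were Smox (-0.61 ± 0.06) and Sat1 (-0.38 ± 0.04), both enzymes that break polyamines down, and Oaz2, an antizyme that restrains ornithine decarboxylase, rose (0.27 ± 0.07). Of the citrate cycle list, Idh1 (0.65 ± 0.06) and the mitochondrial carrier Slc25a11 (0.20 ± 0.05) rose and none fell. Spr rose among the 9 tested cofactor genes (0.37 ± 0.09), and none of the 14 superoxide genes was called. Idh1 and Spr had fallen with LPS, and their CCM and LPS comparisons share the LPS libraries.

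In KO BMDMs none of the 9 members was called for CCM under LPS, where the test called 0.112% of 13386 genes, with 1070 below 0.05 before adjustment (180 were called with DESeq2, Odc1 among them). The estimates lay close to those of WT with wider errors. Nos2 was at 166, 344 and 433 CPM (lowest, median and highest) with LPS and at 80.7, 162 and 290 CPM with LPS plus CCM (-0.94 ± 0.32, adjusted p = 0.378), lower in 6 of 6 same-numbered pairs. Gch1 (-0.39 ± 0.19, adjusted p = 0.649) and Acod1 (-0.27 ± 0.14, adjusted p = 0.681) were also lower in 6 of 6 pairs. Odc1 was higher in 6 of 6 pairs, at 60.6, 77.0 and 93.2 CPM with LPS and 98.0, 107 and 143 CPM with LPS plus CCM, with no overlap between the groups (0.56 ± 0.15, adjusted p = 0.192). Odc1 was called without KO replicate 6 (0.59, adjusted p = 0.0475), where the genes called went from 15 to 170 (1.27%), with DESeq2 (0.56, adjusted p = 0.0325) and in the fit over all libraries (0.58, adjusted p = 0.0278). Ass1 stood higher in 6 of 6 pairs as well (0.30 ± 0.19, adjusted p = 0.762), and the remaining members were between -0.08 and 0.27. Without KO replicates 2 and 6 together, Nos2 was at -0.86, Gch1 at -0.36, Acod1 at -0.24 and Odc1 at 0.55. Replicate 5 had the largest Nos2 change of the 6 pairs (-1.88) and the highest Sod2 with LPS plus CCM (3522 CPM), and without it Nos2 was at -0.81, Gch1 at -0.44, Acod1 at -0.24, Odc1 at 0.52 and Sod2 at 0.0057. A fit blocked on replicate number called Nos2 (-1.05, adjusted p = 0.00548), Gch1 (-0.39, adjusted p = 0.0179), Odc1 (0.56, adjusted p = 0.00447) and Acod1 (-0.27, adjusted p = 0.0475), where 5.8% of the genes were called. Same-numbered libraries of this comparison correlated at -0.10 to 0.81. Voom with quality weights called Nos2, Gch1 and Odc1 among 768 genes in all.

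Whether CCM acted differently under LPS in KO and WT was tested as an interaction, which called 0% of 14546 genes (72 with an unadjusted p under 0.05, 0 with DESeq2) and none of the members. The difference in log2 fold change, KO minus WT, was 0.0052 for Nos2 with a 95% interval of -0.99 to 1.0, 0.12 for Gch1 (-0.46 to 0.70), 0.12 for Odc1 (-0.40 to 0.63) and -0.03 for Acod1 (-0.44 to 0.39). Each interval held 0. For Nos2, Gch1 and Acod1 it also held a difference that would cancel the WT effect, whereas for Odc1 the lower bound of -0.40 stopped short of the WT rise of 0.46. The 4 calls in WT and their lack in the unblocked KO fit are therefore not a shown difference between genotypes.

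Whether CCM acted differently with and without LPS was tested in each genotype. In WT, 2.09% of 14747 genes and 1 member were called: Gch1, whose CCM effect was lower under LPS by 0.40 ± 0.09 on the log2 scale (adjusted p = 0.04). Gch1 had been at 19.0, 21.9 and 18.4 CPM with CCM alone, against 20.2 to 22.1 CPM in vehicle. This call was kept in 7 of 19 alternatives. It was lost with total-count scaling (-0.30, adjusted p = 0.0933), in the fit over all libraries, and without any single WT library other than CCM replicate 3 or LPS plus CCM replicate 1 (adjusted p of 0.0548 to 0.0944). Nos2 (-2.45 ± 0.64, adjusted p = 0.0687), Arg2 (-0.88 ± 0.23, adjusted p = 0.0719), Acod1 (-0.48 ± 0.13, adjusted p = 0.0877), Arg1 (-1.14 ± 0.43, adjusted p = 0.238) and Sod2 (-0.17 ± 0.07, adjusted p = 0.242) did not pass. The Nos2 term rests in part on WT vehicle and CCM libraries with 0 to 5 counts each, too few to test CCM without LPS. For Arg2 the term was of like size in KO (-0.87 ± 0.30, adjusted p = 1), where 0.00685% of 14588 genes were called, and it was called in KO when the fit was blocked on replicate number (-0.89, adjusted p = 0.0377, with 0.555% of genes called). In both genotypes Arg2 had its vehicle libraries below those of CCM, LPS and LPS plus CCM on average, whose means lay between 6.81 and 7.51 CPM.

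KO and WT BMDMs were compared directly in vehicle and under LPS, and neither comparison called a gene (0% of 14385 and 0% of 13794, with 118 and 105 genes at an unadjusted p under 0.05). DESeq2 called 1 gene in each, and no member. Without KO replicates 2 and 6 together, 5 genes were called in each, again with no member. In vehicle the log2 fold changes of the tested members lay between 0.09 (Odc1) and 0.70 (Arg1, ± 0.31, adjusted p = 1), apart from Acod1 at 1.72 ± 0.93, where KO replicate 2 stood high. Under LPS they lay between -0.38 (Arg1) and 0.29 (Asl). For Asl, KO replicate 6 stood high at 87.3 CPM under LPS, against 40.6 to 45.3 CPM in the other KO LPS libraries. Nos2 under LPS was at 379 ± 27 CPM in WT (mean ± s.d., n = 3) and 332 ± 93 CPM in KO (n = 6), and Acod1 at 6572 ± 357 and 6119 ± 932 CPM. The interaction of genotype and LPS called 0% of 15093 genes (112 with an unadjusted p under 0.05, 0 with DESeq2). Its estimates were -3.34 ± 1.56 for Nos2, -1.80 ± 0.92 for Acod1 and -1.06 ± 0.50 for Arg1 (adjusted p = 1 each). Without KO replicate 2, those of Nos2 and Acod1 were -1.02 and -0.53, and without KO replicate 1 that of Arg1 was -0.78.

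For each member the 2 other genes with the most similar log2 CPM over the 36 libraries were listed, as a description, since the libraries fall into those with and without LPS and this split sets most of each r. Nos2 was closest to Rsad2 (r = 0.995) and Il12b (0.994), Gch1 to Rnf114 (0.998) and Mapkapk2 (0.997), Ass1 to Pilrb2 and Oas1a (0.994 each), Acod1 to Clec4e and Gbp2 (0.997 each), and Sod2 to Lmo4 and AW112010 (0.998 each). Within the 18 LPS libraries, r stayed at 0.912 for Nos2 with Rsad2 and 0.956 for Gch1 with Mapkapk2, and was 0.535 for Ass1 with Oas1a. Asl was closest to Uap1l1 and Cuedc2 (0.981 each), where KO replicate 6 stood high. Odc1 was closest to Clec4n (0.805) and Prdx6 (0.801), Arg2 to Gm17494 (0.779) and Slc11a1 (0.757), and Arg1, near its detection limit, had no close match (D330045A20Rik 0.532, Ctnnal1 0.517).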

How the data were processed

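RNA-seq was performed by the authors on 36 libraries of mouse BMDMs. Poly(T) beads were used to select mRNA, paired reads were cleaned with fastp, aligned to mm10 with HISAT2 2.0.5 and summed per gene with featureCounts 1.5.0-p3, and the authors deposited raw gene counts. The strand setting was not given in the sources used here. Levels per kilobase used the gene lengths of the same table.

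Groups came from the labels. For every comparison, only the groups concerned entered the fit in edgeR 4.0.16 (R 4.3.3; filterByExpr, TMM, quasi-likelihood test, two-sided), with Benjamini-Hochberg adjustment over all genes tested, and called at an adjusted p of at most 0.05. SE was taken from the log2 fold change and the F statistic. For Nos2 with LPS in WT it is smaller than the counting error of the vehicle counts. CPM were TMM scaled over the 36 libraries, and log2 ratios of pairs used a prior count of 2. The calculation was tested on simulated data. Alternatives were DESeq2 1.42.0, voom with quality weights (limma 3.58.1), RLE and total-count scaling, no filter, a replicate block, a single fit over all libraries, and leaving out replicates. Deviations from the group means of same-numbered libraries correlated above 0.1 in every pair for LPS in KO (0.298 to 0.83), CCM in KO (0.337 to 0.844) and CCM under LPS in WT (0.151 to 0.36). The main fits were not blocked on replicate number, and their calls are those of unpaired tests. In the comparisons just named the numbers were taken to pair the libraries, and values of the blocked alternative are given beside the main ones. Since KO numbers did so, blocked values are also given where calls changed for the other CCM comparisons in KO.

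The members, the 4 lists of related genes and the rule for naming up to 4 called genes of each list by size of change were chosen with earlier results of these data known. A gene that this rule names is not reported here. Precision rests on 13469262 to 28288923 counts per library, and counting intervals cover counting error only.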

Additional observations from a re-analysis of the deposited data

Results flagged for a closer look

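In each of the 36 sets of 6 KO libraries (a member in a treatment), the highest and lowest library was compared with the rest by Dixon's gap test at the 95% level. A library stood apart in 12 sets, where chance gives about 1 in 20, or 1.8 sets. The sets are not independent, since all members were read in the same libraries and 1 odd library can stand apart in many sets. All 12 were in KO replicates 2 and 6.

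In KO vehicle replicate 2, Nos2 was at 2.36 CPM (53 counts), against 0 to 0.279 CPM in the other vehicle libraries, and Acod1 was at 47.6 CPM, against 3.35 to 7.57 CPM. Both genes are among those raised most by LPS.

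KO replicate 6 stood high for 5 genes. Gch1 was at 35.7 CPM in vehicle (others 18.6 to 22.4) and 515 CPM under LPS (others 296 to 341). Ass1 was at 33.2 CPM in vehicle (others 10.1 to 14.9), 26.2 CPM with CCM (others 9.83 to 12.2) and 421 CPM under LPS (others 256 to 297). Asl was at 97.8 CPM in vehicle (others 42.7 to 50.9), 132 CPM with CCM (others 42.8 to 52.3) and 87.3 CPM under LPS (others 40.6 to 45.3). Odc1 was at 119 CPM with CCM (others 79.7 to 89.2), and Sod2 at 2710 CPM under LPS (others 2190 to 2390).

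The effect of CCM on Gch1 in WT differed with and without LPS by -0.40 on the log2 scale, by the interaction test.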

How the results depend on the processing

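The members called for LPS stayed at 7 to 9 in WT and 5 to 8 in KO under every alternative, and those for KO against WT and for both genotype interactions stayed at 0. Over all genes, the calls for LPS ran from 5644 to 10611 in WT and from 5429 to 9774 in KO. For CCM alone in WT the count went from 0 to 2 with DESeq2, 2 with no filter and 2 with the replicate block; in KO it went from 0 to 2 with voom and 2 with the block, and was 0 to 1 when a replicate was left out. For CCM under LPS in WT the 4 calls became 0 in the fit over all 36 libraries and 2 to 4 when a library was left out. The genes called in all went from 1621 to 17 in that fit, and to 893 to 1352 without a library. In KO the 0 calls became 1 with DESeq2, 3 with voom, 4 with the block (Nos2 -1.05, Gch1 -0.39, Acod1 -0.27, Odc1 0.56), 1 in the fit over all libraries and 0 to 1 without a replicate. In the same order, the genes called in all went from 15 to 180, 768, 777, 285 and 0 to 170. The interaction of LPS and CCM in WT went from 1 call to 4 with DESeq2, 2 with voom, 0 with total counts, 3 with no filter, 0 over all libraries and 0 to 2 without a library, and in KO from 0 to 1 with voom and 1 with the block. In the same order, the genes called in all went in WT from 308 to 696 (of 7875 tested), 447, 347, 721, 0 and 149 to 295. In KO they went from 1 to 100 and 81. Whether the members differed from all genes in these shifts was not tested. For CCM under LPS in KO the same-numbered libraries correlated at -0.1 to 0.81, so the pairing was not settled by that comparison alone.

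Several values near 0 changed sign, and the cause was not tested. With total counts, Odc1 for LPS was -0.063 in WT and -0.051 in KO, and for CCM under LPS in WT Arg2 was 0.075 and Sod2 0.043. Arg1 for LPS in KO was -0.14 with voom, -0.36 with total counts, -0.0011 with the block, -0.20 without KO replicates 2 and 6, and -0.082 to 0.31 without 1 replicate. Asl for CCM in WT was 0.0013 with DESeq2, 0.039 with voom, 0.0032 with the block, 0.012 over all libraries and -0.059 to 0.12 without a library. For CCM in KO without replicates 2 and 6, Acod1 was 0.17 and Sod2 0.028, and without 1 replicate Acod1 was -1.67 to 0.017 and Asl -0.0028 to 0.22. For CCM under LPS, Arg1 in WT was -0.086 to 0.26 and Arg2 -0.13 to 0.10 without a library, Arg2 was 0.00025 with the block, and Sod2 in KO was -0.033 with voom. The genotype difference in the CCM effect under LPS was, for Nos2, -0.0060 with DESeq2, -0.0060 with RLE, -0.039 with total counts, -0.10 with the block and -0.11 to 0.13 without a library; for Odc1 it was -0.0026 with voom and -0.040 to 0.22, and for Acod1 0.024 with voom and -0.077 to 0.013.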
